A study of Homo sapiens with 2 samples.

Results

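The genes described here are the core components and targets of the Wnt pathway, in esophageal carcinoma cells that received SOX17 or an empty vector. They are a named list of 58 genes, and a gene entered when the annotation of the array platform paired at least 1 probe set with that gene and no other. This held for 52 of the 58 genes, out of 19775 genes so named on the array, with 133 probe sets between them. WNT3, WNT3A, PORCN, FZD8, TCF7 and EPHB2 had no such probe set and were not analysed here. The study comprised 2 expression arrays of KYSE170-luc, an esophageal squamous carcinoma line whose suffix stands for luciferase. One array held RNA of cells transfected with an empty vector. The other held RNA of cells transfected with a SOX17 expression plasmid, and both were taken 12 h after transfection. Neither group had a replicate, so no p-value was computed, precision is limited by the number of arrays, and each difference below is one between these 2 arrays. The labels do not give the dose of plasmid or the share of cells that took it up.

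Wnt proteins are secreted lipid-modified ligands that bind a Frizzled receptor together with the co-receptor LRP5 or LRP6. Without ligand, a destruction complex of axin, APC, the kinase GSK3 and casein kinase marks beta-catenin for breakdown by the proteasome. With ligand, Dishevelled proteins block that complex, and beta-catenin enters the nucleus and switches on target genes together with TCF/LEF factors. SOX17 is an HMG-box transcription factor, as the TCF/LEF factors are, and is known from other systems to bind beta-catenin and to restrain transcription driven by TCF/LEF.

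The promoters of 4 measured genes are shown because they hold a short sequence that one of these HMG-box factors is known to prefer. The searched letters were AACAAT, a SOX-type core, and CTTTGA, a TCF/LEF-type core, each on both strands (as ATTGTT and TCAAAG). The 2 cores share no overlap in the sequences shown. Each run spans 250 bases before to 50 bases after a RefSeq start site on GRCh38.p14, is written 5′ to 3′ on the strand of the gene, and has the matches in capitals. The sequence of MMP7 lies on the minus strand at chr11:102530698-102530997, that of DKK1 on the plus strand at chr10:52314031-52314330, that of TLE4 on the plus strand at chr9:79572927-79573226 and that of TCF7L2 on the plus strand at chr10:112949997-112950296.
MMP7: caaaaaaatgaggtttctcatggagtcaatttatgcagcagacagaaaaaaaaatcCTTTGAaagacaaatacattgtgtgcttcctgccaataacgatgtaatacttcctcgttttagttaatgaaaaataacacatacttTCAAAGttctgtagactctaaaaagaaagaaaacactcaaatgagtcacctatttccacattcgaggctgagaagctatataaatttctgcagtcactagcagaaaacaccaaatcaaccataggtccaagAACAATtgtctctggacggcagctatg
DKK1: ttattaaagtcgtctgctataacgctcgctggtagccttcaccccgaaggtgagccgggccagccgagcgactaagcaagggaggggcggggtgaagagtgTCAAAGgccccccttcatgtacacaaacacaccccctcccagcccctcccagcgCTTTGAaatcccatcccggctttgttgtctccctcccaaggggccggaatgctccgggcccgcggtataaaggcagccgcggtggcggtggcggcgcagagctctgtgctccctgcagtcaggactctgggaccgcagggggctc
TLE4: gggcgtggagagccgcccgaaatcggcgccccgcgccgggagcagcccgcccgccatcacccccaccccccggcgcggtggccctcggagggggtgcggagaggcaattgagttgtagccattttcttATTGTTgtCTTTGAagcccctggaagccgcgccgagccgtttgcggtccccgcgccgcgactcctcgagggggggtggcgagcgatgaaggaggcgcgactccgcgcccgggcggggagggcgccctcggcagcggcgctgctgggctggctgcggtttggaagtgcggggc
TCF7L2: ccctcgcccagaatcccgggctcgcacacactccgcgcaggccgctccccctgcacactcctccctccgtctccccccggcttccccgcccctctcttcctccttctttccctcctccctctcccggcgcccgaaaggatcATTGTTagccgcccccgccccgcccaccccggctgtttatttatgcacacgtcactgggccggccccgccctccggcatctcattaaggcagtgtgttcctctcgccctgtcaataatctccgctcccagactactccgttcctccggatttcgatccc
MMP7, which encodes the matrix protease matrilysin, held CTTTGA at -194, TCAAAG at -108 and AACAAT at 24, counted from the start site. DKK1, which encodes a secreted inhibitor of LRP5 and LRP6, held TCAAAG at -149 and CTTTGA at -95. TLE4, which encodes a co-repressor of the Groucho family, held ATTGTT at -122 and CTTTGA at -114, and TCAAAG at -19 of its other start site. TCF7L2, a TCF/LEF factor, held ATTGTT at -109 of 1 of its 3 start sites. A promoter entry existed for 41 of the 58 genes. Among these, 3 (7.32%) held the SOX-type core and 4 (9.76%) the TCF/LEF-type core, the fourth being PORCN. Of all 35116 promoters of this length, 10.1% held the SOX-type core and 12.9% the TCF/LEF-type core. The same shares per gene were 12.2% and 15.5% of 27305 genes. The log2 ratios of the 4 genes differed in sign, at 0.34 for MMP7, 0.31 for TLE4, -0.11 for DKK1 and -0.39 for TCF7L2. In the same order they were 0.96, 1.23, 0.60 and 2.23 times the SD of 1 ratio, which is gauged further on. MMP7, TLE4 and DKK1 each had 1 measured probe set, and the 5 of TCF7L2 ran from -0.39 to 0.36. Whether a match bears on these ratios was not tested. A match describes letters in this window and is not evidence of binding.

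A few facts of both arrays bear on the values. The deposited values are linear intensities, and every log2 ratio divides the SOX17 by the empty vector value. A floor was set at an intensity of 95, below which 60% of the pooled values of both arrays lie. A gene was represented by its brightest probe set and called measured when that probe set reached the floor on each of the arrays, which held for 10034 genes. SOX17 itself could not serve as a check of the labels. Its 2 probe sets read 4.5 and 19.1 on the empty vector array and 83.8 and 6.5 on the SOX17 array, all below the floor, and whether the plasmid's transcript contains either target sequence is not given in the sources used here. Poly-A control RNAs, which are spiked in ahead of labelling, had brighter signals after SOX17 transfection for 24 of 24 probe sets (median log2 ratio 0.57), and their part in the ratios below was not tested. The signal of the 3′ over the 5′ control probe set of ACTB was 11.59 with the empty vector and 10.39 with SOX17. For GAPDH it was 1.16 and 1.18. Whether this bears on probe sets of 1 gene that differ was not tested. Of 10 squamous epithelial markers 8 had a probe set, including KRT5, KRT14 and DSG3, and all 8 were measured, with summed intensities of 108526.8 and 113807.2. Most of these sums came from SFN (50352.6 and 52641.3), PERP (38464.9 and 41187.8) and CDH1 (13231.7 and 12679.3). KRT5 read 247.5 and 273.0, KRT14 1509.7 and 1814.3, and DSG3 734.9 and 614.2. Of 4 endothelial markers 0 were measured, of 6 fibroblast markers 1 (COL1A1, 780.2 and 845.1) and of 5 leukocyte markers 1 (CD79A). The summed intensity of the fibroblast list was 906.5 with the empty vector and 972.7 with SOX17, that of the leukocyte list 180.8 and 307.3, and that of the endothelial list 178.8 and 129.5. The last 2 sums hold mostly probe sets below the floor, such as CD14 (2.9 and 55.3) and LYZ (3.6 and 65.5), and CD79A read 112.0 and 96.9.

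Most of the Wnt pathway genes differed little between the arrays. Of the 52 genes 37 were measured, 20 with a ratio above 0 and 17 below. Their median log2 ratio was 0.07, beside 0.03 for all measured genes, and 45.4% of all measured genes had a ratio below 0. WNT6 and BTRC were the 2 members higher on the SOX17 array by 1.5-fold or more, and 0 were lower by as much. FZD7, EPHB3 and BTRC lay so close to that size that the split of 2 higher and 0 lower became 1 and 2 after centring, 2 and 1 after quantile normalization and 1 and 1 after loess. The 2 genes are 5.41% of the measured members, where 6.97% of all measured genes passed 1.5-fold in either direction, 3.78% of them higher and 3.19% lower. At a log2 ratio of 0.32 or more in size, 8 members were higher and 5 lower, together 35.1%. Of all measured genes 28.0% passed that size in either direction. At 2-fold 0 members passed, where 0.747% of all measured genes did. The SD over genes of the ratios was 0.32 for the 37 members and 0.32 for all measured genes. These 2 SDs were not matched for level, on which the spread of ratios depends. The shares lie near those of all measured genes, and the differences between them were not tested. In RNA from a whole culture, fewer cells expressing a gene and less of its RNA per cell cannot be told apart.

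**Figure D1:**
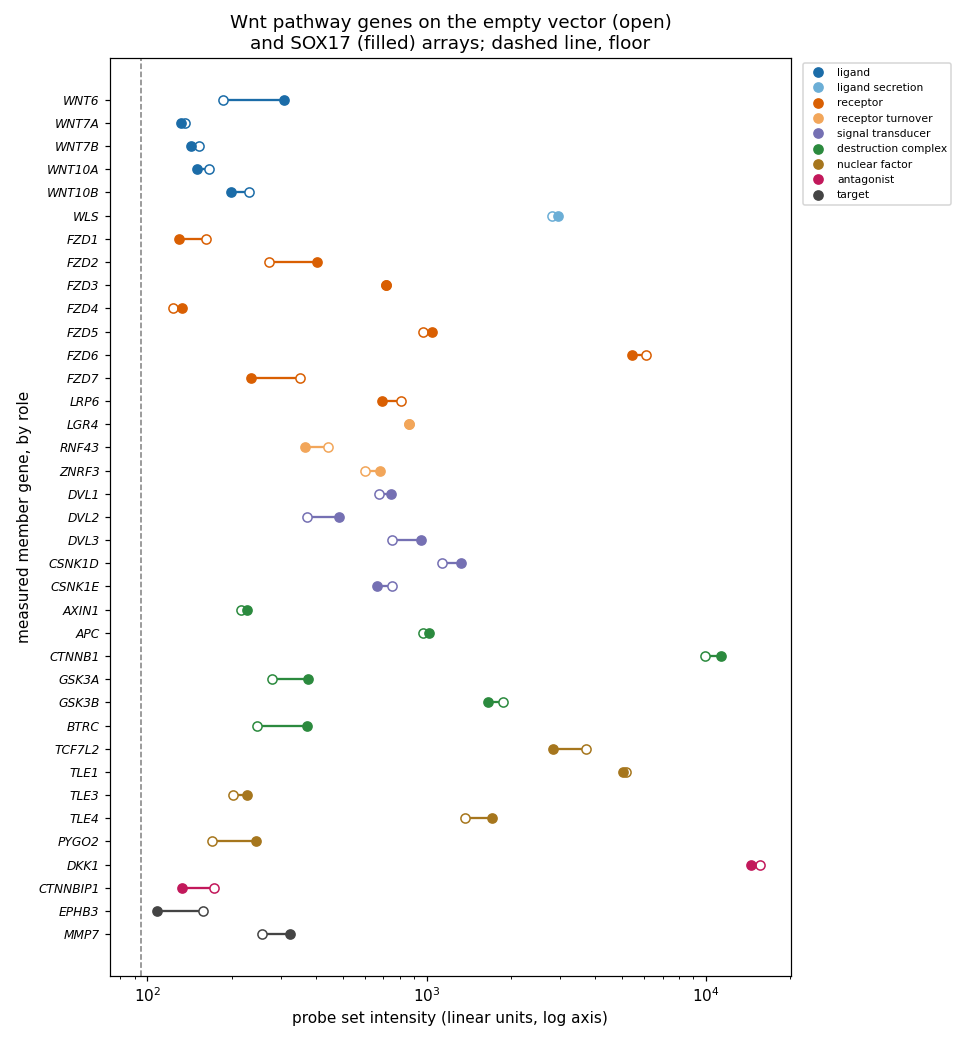
Intensity of the representative probe set of each of the 37 measured genes on the empty vector array (open circles) and the SOX17 array (filled circles), on a log axis, coloured by role, with 1 array per group and no error bar. Most pairs nearly touch, WNT6, FZD2, FZD7, BTRC and EPHB3 have longer lines, and positions of different genes cannot be compared because probe sets differ in brightness.

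Error within these arrays was gauged from genes with more than 1 probe set. For 4574 genes at least 2 probe sets were measured, and the difference between the ratios of the 2 brightest, divided by the square root of 2, put the SD of 1 log2 ratio at 0.27. By tertile of level, from dim to bright, this SD was 0.35, 0.26 and 0.17. This SD holds differences between the transcripts that probe sets detect, and leaves out the spread between cultures. Of the 37 measured members 19 lay in the lowest tertile, 12 in the middle and 6 in the highest. WNT6 and TCF7L2 were the 2 members beyond 2 SD of 1 ratio (5.41%), where 9.88% of all measured genes lay beyond it. For 21 members the ratio rests on 1 measured probe set. Of the 16 with several, 7 had the same sign on every one (43.8%), against 48.6% of the 4574 genes.

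**Figure D2:**
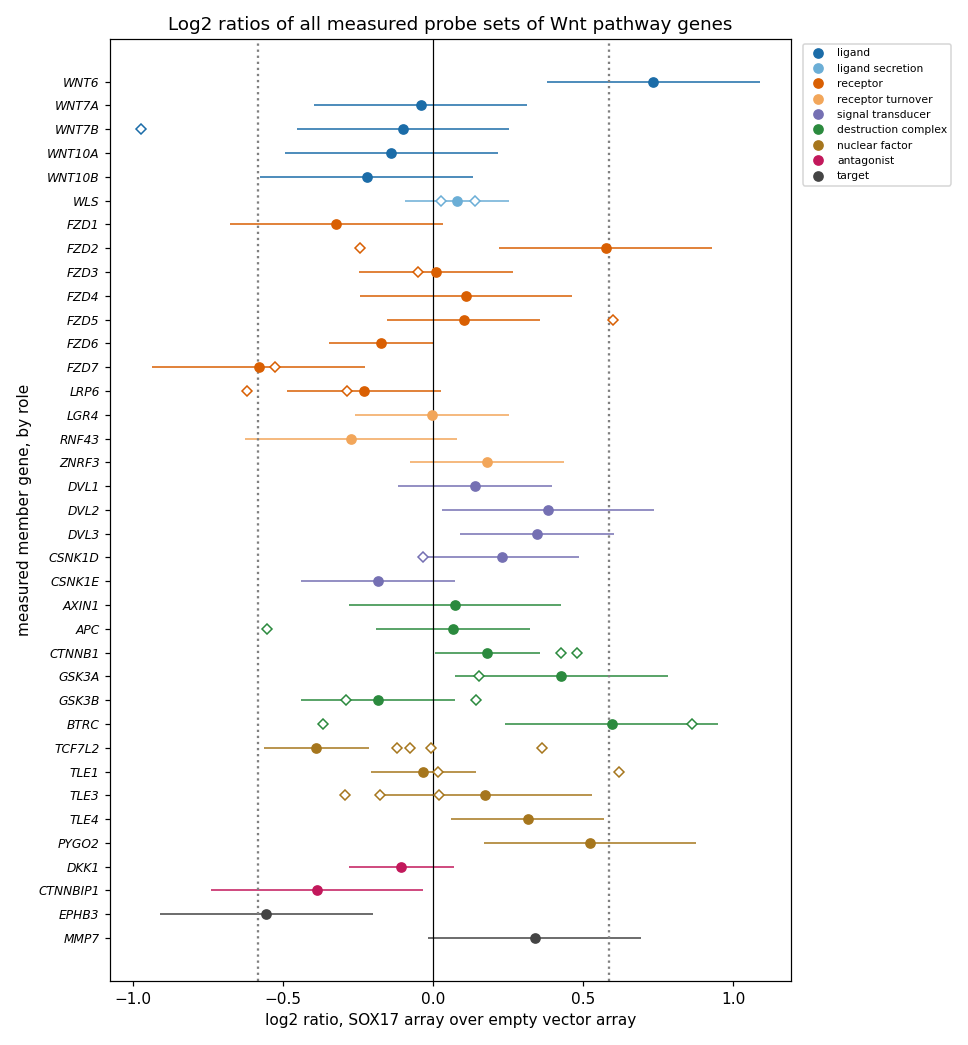
Log2 ratio of the SOX17 over the empty vector array for the 64 measured probe sets of the 37 genes, with filled circles for the representative probe set, open diamonds for the others, bars of 1 SD of 1 ratio at that level and dotted lines at 1.5-fold. The probe sets of FZD7, LRP6, CTNNB1 and GSK3A stay on 1 side of 0, while those of BTRC, FZD2, TCF7L2 and TLE3 lie on both.

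Among the ligands, WNT6 had the highest ratio of all measured members and the other measured ligands lay slightly below 0. WNT6 read 185.7 with the empty vector and 308.8 with SOX17 (1.66-fold higher, log2 ratio 0.73, 2.07 times the SD of 1 ratio). Its other 3 probe sets were below the floor on both arrays and read 70.6 and 6.5, 28.5 and 11.4, and 3.4 and 7.3, so the difference rests on 1 probe set of 4. WNT7A read 136.2 and 132.3 (log2 ratio -0.04), and WNT10A 166.0 and 150.7 (-0.14). WNT10B, a ligand known for acting through beta-catenin, read 231.5 and 198.5 (-0.22). WNT7B read 153.5 and 143.2 (-0.10), but its other probe set read 192.1 and 97.9 (-0.97), close to the floor on the SOX17 array. The median of the 5 measured ligands was -0.10, with 4 below 0, and all 5 lay in the lowest tertile of level. WNT4, WNT11 and WNT5A and WNT5B, the last 2 known mainly for signalling without beta-catenin, were below the floor on both arrays on every probe set. WLS, which carries Wnt proteins to the cell surface, read 2802.8 and 2961.5 (0.08), and its 3 probe sets ranged from 0.03 to 0.14.

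The receptors split evenly, 4 above and 4 below 0, with a median of -0.08 over 8 measured. After centring the ratios on their median, 3 were above and 5 below. FZD7 and EPHB3 had the lowest ratios of the measured members, EPHB3 the lower of them after quantile normalization and with the mean over probe sets. FZD7 had readings of 350.4 with the empty vector and 234.2 with SOX17 (log2 ratio -0.58, just short of 1.5-fold), and its other probe set read 263.7 and 183.1 (-0.53). The IDs of both FZD7 probe sets end in _s_at, so the gene has no ratio when _x_at and _s_at probe sets are left out. Both were lower on the SOX17 array by nearly the same amount, 1.64 times the SD of 1 ratio for the brighter probe set. FZD2 went the other way on its brighter probe set, at 271.7 and 404.6 (0.57), but its other probe set read 118.4 and 100.1 (-0.24). FZD1 read 162.7 and 130.1 (-0.32). FZD6, a receptor known for planar cell polarity, read 6109.3 and 5417.1 (-0.17). FZD5 read 970.3 and 1040.9 (0.10), with 0.60 on its other probe set, FZD4 read 123.5 and 133.2 (0.11), and FZD3 712.4 and 717.4 (0.01). The co-receptor LRP6 was lower on all 3 of its probe sets, at 810.4 and 690.4 (-0.23), 286.5 and 186.5 (-0.62) and 167.1 and 136.8 (-0.29). LRP5 lay below the floor on both arrays on both of its probe sets. FZD10 read 88.8 with the empty vector and 135.7 with SOX17, so it crossed the floor but stayed below 2 times the floor, and no fold is given.

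Receptor turnover is set by LGR receptors, which bind R-spondins, and by the ubiquitin ligases RNF43 and ZNRF3, which remove Frizzled from the membrane. LGR4 read 863.1 with the empty vector and 860.7 with SOX17 (-0.004). RNF43 read 444.8 and 367.9 (-0.27), and ZNRF3 602.9 and 682.9 (0.18). Both ligases are also known as Wnt targets, and their ratios had opposite signs, each below 1 SD of 1 ratio. LGR5 was below the floor on both of its probe sets.

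The signal transducers had a median of 0.23, with 4 of 5 above 0 (3 of 5 without probe sets whose ID ends in _s_at or _x_at). The median of all 10034 measured genes was 0.03, with 5474 above 0, and the difference was not tested. Of the Dishevelled genes, which relay the signal from Frizzled, DVL1 read 675.3 with the empty vector and 743.8 with SOX17 (0.14). DVL2 read 371.2 and 484.1 (0.38), and DVL3 753.1 and 956.6 (0.35). All 3 were higher on the SOX17 array, on 1 measured probe set each and by at most 1.35 times the SD of 1 ratio. The other probe set of DVL2 read 57.8 and 30.2 and that of DVL3 83.5 and 58.2. These were lower on the SOX17 array and below the floor on both arrays. The casein kinase genes differed in sign, CSNK1D at 1132.3 and 1327.8 (0.23, with -0.03 on its other measured probe set) and CSNK1E at 752.3 and 662.5 (-0.18). A further probe set of CSNK1E read 19.3 and 156.7, above the floor on the SOX17 array only.

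Of the destruction complex genes, grouped here with CTNNB1, 5 of 6 measured had a ratio above 0, with a median of 0.13. Of all 10034 measured genes 5474 had a ratio above 0. CTNNB1, which encodes beta-catenin, the protein the complex degrades, read 9940.9 with the empty vector and 11269.3 with SOX17 (0.18). Its other probe sets read 233.6 and 325.6 (0.48) and 214.0 and 287.8 (0.43), so all 3 were higher on the SOX17 array. GSK3A read 280.3 and 377.0 (0.43), with 0.15 on its other probe set, while the related kinase GSK3B read 1882.4 and 1656.2 (-0.18), with probe sets from -0.29 to 0.14. BTRC, the ubiquitin ligase subunit that recognises marked beta-catenin, read 246.2 and 371.7 (1.51-fold higher, 0.59). Its other 2 measured probe sets read 120.3 and 218.7 (0.86) and 141.4 and 109.7 (-0.37), so its probe sets differ in sign. Without probe sets whose ID ends in _s_at or _x_at, which can match several transcripts, the ratio of BTRC was -0.37. The scaffold genes were nearly level, AXIN1 at 216.4 and 227.6 (0.07) and APC at 971.5 and 1016.7 (0.07), although the other measured probe set of APC read 231.6 and 157.7 (-0.55). The count of 5 above 0 held under the 3 other scalings. It was 4 of 6 with the mean over probe sets, 3 of 5 without the _s_at and _x_at probe sets, and 2 of 3 with a floor at the 75th percentile.

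**Figure D3:**
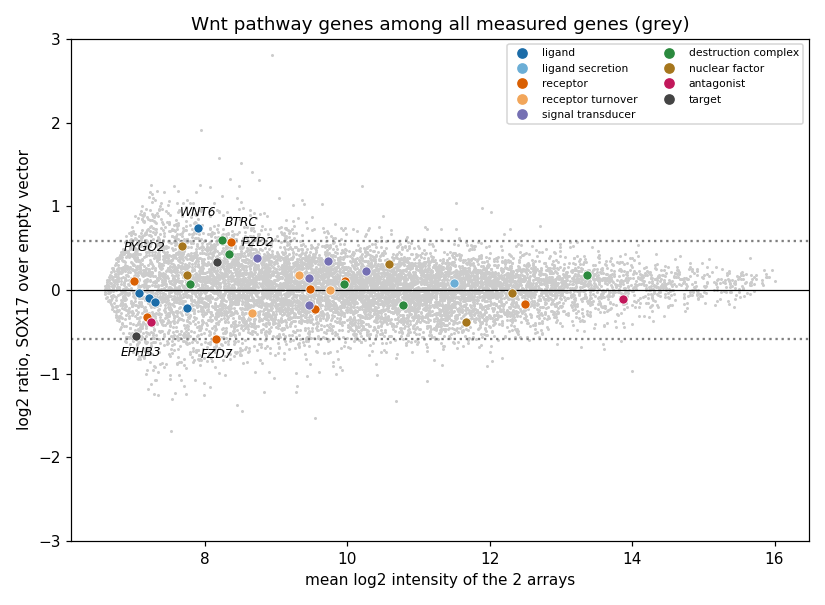
Log2 ratio against the mean log2 intensity of both arrays for all 10034 measured genes (grey) and the 37 measured Wnt pathway genes (coloured by role), with dotted lines at 1.5-fold and names for the 6 members of largest ratio in either direction. The 6 named genes all sit at low levels, where the grey cloud is widest, and WNT6 and BTRC lie above the upper dotted line.

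Of the nuclear factors 3 of 5 measured genes had a ratio above 0, with a median of 0.17, and the median turned to -0.03 with a floor at the 75th percentile, which left 3 genes. TCF7L2 was the measured TCF/LEF factor and read 3711.7 with the empty vector and 2833.8 with SOX17 (-0.39, 2.23 times the SD of 1 ratio). Its other 4 measured probe sets lay at 0.36, -0.01, -0.08 and -0.12, and the mean over all 5 was -0.05. TCF7L2 is known for alternative splicing, and which transcripts each probe set detects was not tested. PYGO2, which with BCL9 couples beta-catenin to the transcription machinery, read 170.1 and 244.4 (0.52). The other probe set of PYGO2 read 14.1 and 4.1, below the floor on both arrays. The Groucho co-repressors bind TCF/LEF factors when beta-catenin is absent. TLE4 read 1375.2 and 1710.4 (0.31) on its 1 measured probe set of 5. Its others read 62.1 and 135.1, 56.2 and 71.0, 58.4 and 5.0, and 37.4 and 2.8. They point both ways, and none reached the floor on both arrays. TLE1 read 5163.5 and 5047.0 (-0.03), with 0.62 and 0.02 on its other measured probe sets. TLE3 read 202.2 and 228.1 (0.17), with 4 probe sets from -0.29 to 0.17. LEF1 read 86.9 and 26.9 on its brightest probe set and BCL9 87.1 and 85.2, both below the floor on both arrays. TCF7L1 read 50.6 and 102.5, above the floor on the SOX17 array only and below 2 times the floor.

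Of the 6 antagonists 2 were measured, and both were lower on the SOX17 array. DKK1 read 15559.4 with the empty vector and 14462.2 with SOX17 (-0.11, 0.60 times the SD of 1 ratio at its level). CTNNBIP1, which encodes a small protein that keeps beta-catenin from TCF factors, read 173.6 and 132.7 (-0.39). That is 1.09 times the SD of 1 ratio in the lowest tertile of level, on 1 probe set. SFRP1 and WIF1, secreted proteins that bind Wnt ligands, DKK3, and NKD1, which restrains Dishevelled, were below the floor on both arrays on every probe set.

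The few target genes among the members differed in sign. EPHB3, an ephrin receptor of epithelial positioning, read 158.4 with the empty vector and 107.8 with SOX17 (-0.56), not far above the floor and on 1 measured probe set. MMP7 read 256.2 and 323.9 (0.34). With the pathway components that are themselves known targets, 5 of 9 genes with a probe set were measured (DKK1, RNF43, ZNRF3, EPHB3 and MMP7), 2 above and 3 below 0, with a median of -0.11 and 0 past 1.5-fold. Of 14 measured targets outside the 58 genes, described further on, 12 lay below 0 (85.7%, beside 45.4% of all measured genes). Some of the 12 lay close to 0, and the difference in share was not tested. These targets were listed with earlier results of these data known. Of the 8 with several measured probe sets, 4 did not have the same sign on all. The share of the 14 past 1.5-fold was 7.14%, beside 6.97% of all measured genes. AXIN2, the most widely used readout of beta-catenin activity, was below the floor on all 4 probe sets. They read 33.2 and 64.9, 16.4 and 36.6, 6.2 and 27.4, and 22.8 and 4.9 on the empty vector and SOX17 arrays, so SOX17 readings exceeded empty vector ones on 3 and fell short on 1. LGR5, LEF1 and NKD1 were likewise below it, and these arrays give no usable ratio for any of these 4 targets.

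**Figure D4:**
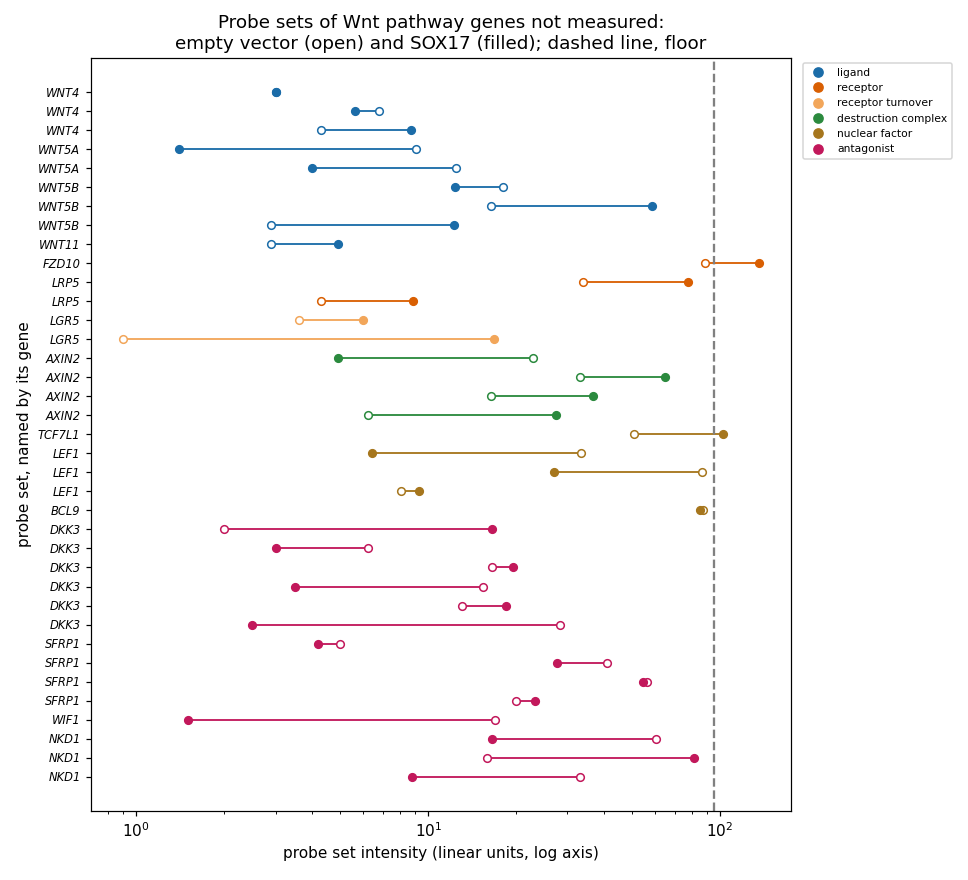
Intensity of the 37 probe sets of the 15 Wnt pathway genes that were not measured, on the empty vector array (open circles) and the SOX17 array (filled circles), on a log axis with the floor of 95 as a dashed line. The lines are long and point both ways even for probe sets of 1 gene, such as DKK3, AXIN2 and NKD1, and the probe sets of FZD10 and TCF7L1 cross the floor on the SOX17 array.

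Ratios below the floor were large and of mixed sign. Of the 15 genes that were not measured, 13 were below it on both arrays, and FZD10 and TCF7L1 on the empty vector array only. The median size of the log2 ratio was 1.10 over the 69 probe sets of the 52 genes that were not measured and 0.23 over the 64 that were. Over all probe sets named to 1 gene the same medians were 0.95 and 0.21. NKD1 is an example, with 15.9 and 81.3 on 1 probe set but 60.5 and 16.6 and 33.2 and 8.8 on the others. No fold is given for these genes.

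A further list held 87 genes of the pathway outside the 58, of which 85 had a probe set and 46 were measured. Of the 46, 15 had a ratio above 0 and 31 below (67.4%, beside 45.4% of all measured genes), with a median of -0.09. This difference in share was not tested, and the list was chosen with earlier results of these data known. The alternative settings were not applied to it. Of its 28 genes with several measured probe sets, 16 had the same sign on all (57.1%, beside 48.6% of all such genes) and 12 did not. At 1.5-fold 0 of the 46 were higher and 1 lower, or 2.17% beside 6.97% of all measured genes. Among other target genes 12 of 14 measured had a ratio below 0 (median -0.15), with CCND1, a G1 cyclin, at -0.20 and MYC at -0.13. CD44 (-0.005), BIRC5 (-0.01) and SNAI2 (-0.06) were among the 12 but lay close to 0. Of the 8 such targets with several measured probe sets, 4 had the same sign on all and 4 did not. Among other core components 12 of 20 lay below 0 (median -0.05), and among planar polarity genes 6 of 11 (-0.01). The 5 with the largest ratios in either direction were all lower on the SOX17 array. ID2, an inhibitor of basic helix-loop-helix factors, read 366.7 with the empty vector and 203.8 with SOX17 (-0.85). The AP-1 subunit JUN read 8154.0 and 5651.6 (-0.53, with 4 probe sets from -1.05 to -0.44), and EP300, a histone acetyltransferase and co-activator of beta-catenin, 1096.8 and 760.5 (-0.53, with -0.11 on its other probe set). SOX9 read 1044.2 and 746.3 (-0.48, with -0.12 on its other probe set), and VEGFA 2609.7 and 1935.7 (-0.43, with 3 probe sets from -0.43 to -0.29). ID2, JUN, SOX9 and VEGFA are also known to respond to other pathways. Of the other antagonists NKD2 was the 1 gene measured of 16, at -0.40.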

How the data were processed

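RNA of KYSE170-luc cells was measured on 1 array per group, empty vector or SOX17, at 12 h. Total RNA was extracted with Trizol and labelled as biotinylated cRNA, per the labels' protocols. The authors deposited linear intensities, 1 for each probe set of an array, and used GCOS to make them, per the submitters' processing notes. Its algorithm and settings, and any detection call, are not given in the sources used here. Both arrays had a mean intensity of 500.1 once 2% of values were left out at either end, so no further scaling was applied.

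Probe sets were named from GEO's annotation of the platform. Symbols were checked against current RefSeq genes, and 0 changed. Log2 ratios were computed per probe set, and genes, the floor and folds were defined as the report states. A bound is the brighter intensity over the floor, where only 1 array reached it and did so at 2 times the floor; it applied to 0 members. Every member is accounted for by role, and of the other pathway genes the 5 measured ones with the largest absolute ratio are named, with others named after their values were seen. The members and lists were chosen with earlier results of these data known. The alternatives were centring, quantile normalization, loess (span 0.4), other floors, the mean over probe sets, leaving out _x_at and _s_at probe sets, and other fold thresholds. Promoters come from RefSeq (GRCh38.p14). Python 3.11.15, numpy 2.4.6, pandas 2.3.3 and statsmodels 0.14.6 were used.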

Additional observations from a re-analysis of the deposited data

How the results depend on the processing

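No paired analysis was possible because each group has 1 array, and for the same reason no replicate could be left out. The median log2 ratio of the Wnt pathway genes ran from -0.004 (mean over the probe sets of a gene, the setting at which its sign turned) to 0.08 over all settings, and the median of all measured genes moved by less than 0.1 under each scaling. The number of members below 0 was 17 as reported, 9 of 20 under a floor at the 75th percentile and 16 to 23 otherwise. The number past 1.5-fold was 2 as reported, 0 under that floor, 13 of 52 with no floor, 1 with the mean over probe sets, and 2 or 3 otherwise. At 2-fold it was 0 and at a log2 size of 0.32 it was 13. With no floor 36.0% of all genes passed 1.5-fold. After centring, FZD7 (-0.61) and EPHB3 (-0.59) passed it and BTRC (0.56) did not. After quantile normalization EPHB3 passed it (-0.59) and FZD7 (-0.57) did not. After loess FZD7 passed it (-0.59), while EPHB3 (-0.58) and BTRC (0.58) did not. BTRC turned to -0.37 when _x_at and _s_at probe sets were left out. Other floors leave a gene's ratio as it is by construction. Of 111 gene ratios under other scalings 0 moved by 1 SD of 1 ratio or more, and of 70 with another choice of probe sets 9 did. Over all settings 30 of the 37 genes kept their sign wherever they were measured. The median of the receptors turned above 0 with a floor at the 50th percentile (0.01), with no floor (0.06) and without those probe sets (0.01). Low signal limits most the 19 members in the lowest tertile of level, where the SD of 1 ratio was 0.35.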
